A study of Mus musculus with 21 samples.

Results

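Whether the transcriptional response of macrophages to LPS differed when vimentin was knocked out was read from 8 RNA sequencing libraries of RAW264.7 cells, out of 21 libraries in the series. RAW264.7 is a mouse macrophage-like tumour line. The 4 groups were wild type (WT) cells with PBS, WT cells with LPS, vimentin-knockout (Vim-KO) cells with PBS and Vim-KO cells with LPS. LPS was given at 1 µg/mL for 12 h, each group had 2 libraries, and the labels give 1 date of RNA extraction for all 8. Neither a further allele nor a further agent is named for these groups. Separate cultures are not named for the libraries within a group. A p-value here therefore covers the spread of these libraries alone, and that spread may be technical. Nor do the labels state whether the Vim-KO line is 1 clone, so loss of vimentin and other differences between the lines cannot be told apart. The quantity described is the interaction: the LPS change of Vim-KO cells less that of WT cells. It was computed on log2(TPM + 1), where TPM is a length-corrected share of all transcripts, and on this scale the change of low genes is understated. Of 35550 genes listed, 11115 had a mean of at least 1 TPM and were tested. All 8 libraries shared 1 limma model, and adjusted p are from limma with Benjamini-Hochberg adjustment at a threshold of 0.05. Interactions and changes are given on the log2 scale ± SE.

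Toll-like receptor 4 senses LPS, a glycolipid from the surface of Gram-negative bacteria. One branch of its signalling, through the adaptor MyD88, activates NF-kB, MAP kinases and AP-1 and induces cytokines and chemokines. Another branch, through the adaptor TRIF, activates IRF3 and interferon beta, whose receptor then switches on interferon-stimulated genes. Macrophages also hold these genes at a resting level through low, constant interferon signalling. Vimentin is the main intermediate filament protein of macrophages and other mesenchymal cells.

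Macrophage identity and depth were examined for all groups. Of 10 macrophage markers, 9 were at 1 TPM or more in each group, and their summed level was 17842 to 17966 TPM in WT PBS, 14269 to 15143 TPM in WT LPS, 9262 to 9268 TPM in Vim-KO PBS and 11728 to 12522 TPM in Vim-KO LPS. Lyz2, which encodes lysozyme, made up most of that sum. In bulk RNA, fewer cells that express a gene and less RNA per cell cannot be told apart. The 5 epithelial markers were at 0 in every library, and the B cell and fibroblast sums reached at most 1.06 TPM. The T cell list summed to 12.8 to 13.75 TPM in Vim-KO LPS and 3.31 to 5.95 TPM in the other groups, through the kinase gene Lck, with Cd3e and Trac at 0 throughout. The endothelial list summed to 1.88 to 2.62 TPM in Vim-KO LPS and at most 1.71 TPM elsewhere. The neutrophil list summed to 895 to 911 TPM in WT LPS and 13.6 to 13.7 TPM in Vim-KO LPS through S100a8, while its defining member Ly6g was at 0 in all 8 libraries. The part of these shifts in the interaction was not tested. Sequencing depth cannot be read from TPM, and counting error is therefore unknown. Libraries of the same group had correlations of 0.988 to 0.99 over genes on the log2 scale.

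The targeted gene was read first. Vim stood at 1930.1 and 1877 TPM in WT PBS, 1375 and 1461 TPM in WT LPS, 16.99 and 18.7 TPM in Vim-KO PBS and 30.8 and 32.95 TPM in Vim-KO LPS. Every Vim-KO library lay far below every WT library, and LPS moved the residual signal up in Vim-KO and the full signal down in WT, so that Vim itself had an interaction of 1.23 ± 0.098 (adjusted p 0.000145). After median-of-ratios scaling between libraries the WT change of Vim was -0.05 and did not pass (adjusted p 0.583), while the interaction did (adjusted p 0.000405). Tgm2, which encodes the protein-crosslinking enzyme transglutaminase 2, was at 3.33 and 3.25 TPM in WT PBS and 3.11 and 3.39 TPM in WT LPS, against 0.0508 and 0.0514 TPM in Vim-KO PBS and 0.55 and 0.409 TPM in Vim-KO LPS. Its interaction of 0.51 ± 0.21 (adjusted p 0.135) did not pass the test. Without the mean-variance trend it passed (0.51, adjusted p 0.0238). With a pseudocount of 0.1 in place of 1 the Tgm2 value was 1.95 with an adjusted p of 0.0238.

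The response to LPS differed between the genotypes in 2292 of the 11115 genes, which is 20.6%. The interaction was higher in Vim-KO for 1518 genes (13.7%) and lower for 774 genes (6.96%), and 710 of the 2292 (460 higher, 250 lower), or 6.39% of genes tested, had a size of at least 1. At an unadjusted p the count was 3875 genes, or 34.9%. All 2292 genes had library differences that did not overlap between the genotypes, a property that 5494 genes (49.4%) shared. The split into higher and lower depended on scaling. Median-of-ratios scaling between libraries shifted the median interaction of all genes by -0.11, from 0.09 to -0.02, and gave 1124 higher (10.1%) and 1232 lower (11.1%), so that the higher share of the calls went from 66.2% to 47.7%. Among changes of at least 1, scaling gave 359 higher and 312 lower. The total also depended on single libraries. It fell to 1203 without WT PBS library 1, 1252 without WT PBS library 2, 1256 without Vim-KO PBS library 2, 1439 without Vim-KO PBS library 1 and 1441 without WT LPS library 1. The lower calls alone also fell to 465 without WT LPS library 2.

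Most of the LPS response had the same direction in both genotypes. LPS changed 7881 genes in WT (1983 or 17.8% up, 5898 or 53.1% down, 70.9% in all) and 7376 genes in Vim-KO (2283 or 20.5% up, 5093 or 45.8% down, 66.4% in all). The excess of falls depended on scaling. The median LPS change of all genes was -0.35 in WT and -0.23 in Vim-KO as listed and 0 in both after median-of-ratios scaling, which gave 3640 rises (32.7%) and 3591 falls (32.3%) in WT and 3592 rises (32.3%) and 3543 falls (31.9%) in Vim-KO. Of 6210 genes that passed in both genotypes, 5987 moved the same way, and across all genes tested the changes correlated at a Pearson r of 0.831. Genes are not independent replicates, and this r is a description.

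**Figure D1:**
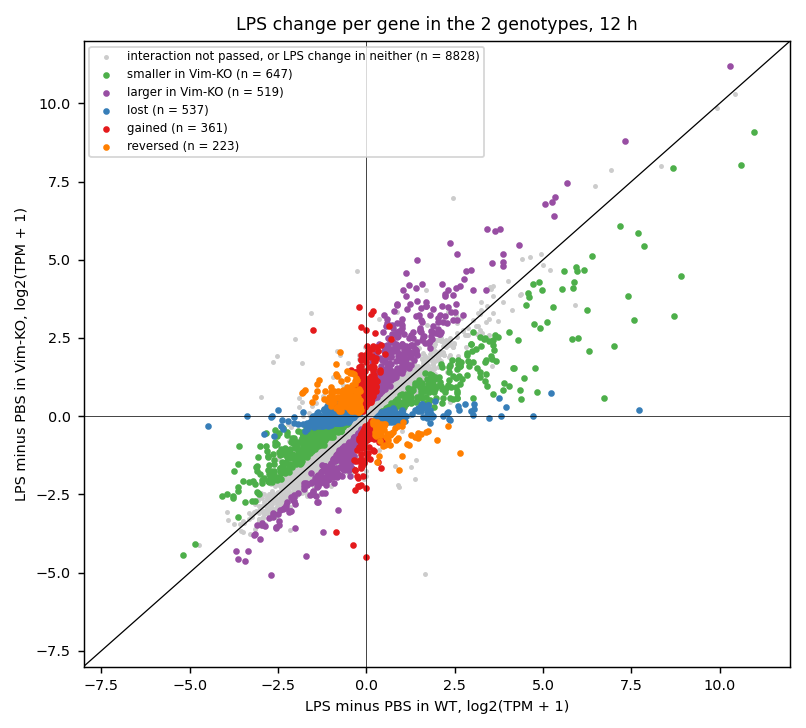
Each point is a gene, with its LPS change in WT on the x axis and in Vim-KO on the y axis, both in log2(TPM + 1), and the diagonal marks equal change. Genes of the 5 classes of interaction are coloured, from 223 reversed to 647 smaller in Vim-KO, and the grey points along the diagonal did not pass the interaction or passed the LPS test in neither genotype.

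The 2292 genes were sorted by which genotype passed its own LPS test. A change was lost where it passed in WT only, gained where it passed in Vim-KO only, reversed where both passed with opposite signs, and larger or smaller in Vim-KO where both passed with the same sign. Not passing does not show that a change was absent. The lost class held 537 genes, 4.83% of those tested (146 rose in WT, 391 fell). The gained class held 361, or 3.25% (238 rose in Vim-KO, 123 fell), and the reversed class 223, or 2.01% (65 rose in WT, 158 fell). Responses of the same direction were larger in 519 genes, or 4.67% (295 rose, 224 fell), and smaller in 647, or 5.82% (215 rose, 432 fell). The other 5 genes (0.045%) passed in neither genotype. Scaling moved most of these counts. It gave 264 lost and 415 smaller rises in place of 146 and 215, and 232 lost and 199 smaller falls in place of 391 and 432. Gained rises numbered 228 and gained falls 197 after scaling, and the reversed class had 104 rises and 97 falls. Similar counts did not mean the same genes: 101 of the 361 gained, 76 of the 223 reversed and 229 of the 537 lost genes had the same class after scaling, as did 402 of the 519 larger and 414 of the 647 smaller ones. Among genes named here the interaction still passed but the class differed in several. Dusp14, Pfkfb3, Jak2 and Tmsb10 were lost and not reversed, since their Vim-KO falls no longer passed, and B2m was larger. Oas2, Ifi207, Il10ra, Nlrc5 and Ddit4 were larger and not gained. Bhlhe40 and Pmaip1 were reversed, Psrc1 was lost, Slc1a4 was smaller and Gm10335 was gained. Single libraries moved the classes too. Without Vim-KO PBS library 2 there were 303 lost, 203 gained, 143 reversed, 307 larger and 300 smaller responses. Without WT PBS library 1 there were 238 lost, 142 reversed, 260 larger and 308 smaller, and without WT PBS library 2 the numbers were 249, 146, 274 and 329. Leaving out Vim-KO PBS library 1 gave 226 gained, 320 larger and 348 smaller, WT LPS library 1 gave 289 lost, 320 larger and 394 smaller, and WT LPS library 2 gave 338 larger. Lost and gained responses were mostly small, with a median LPS change of 0.75 in WT for lost rises and 0.70 in Vim-KO for gained rises. When a response had to reach 1 to be present and stay under 0.5 to be absent, 222 genes were lost and 160 gained. Under that rule 5 genes changed by at least 1 in opposite directions, and these were chosen after their values were seen: Tlr9, Fggy, Gm10335, Gm12013 and Gm45799. This rule takes no p-value of the LPS changes. By the LPS tests 4 of the 5 were also reversed, and Gm45799 was not. The Gm10335 interaction did not pass without Vim-KO LPS library 1, Vim-KO PBS library 2, WT LPS library 2 or either WT PBS library (2.02 to 2.64, adjusted p 0.0543 to 0.0814). Tlr9, which encodes the endosomal receptor for unmethylated DNA, is described with the Toll-like receptors.

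**Figure D2:**
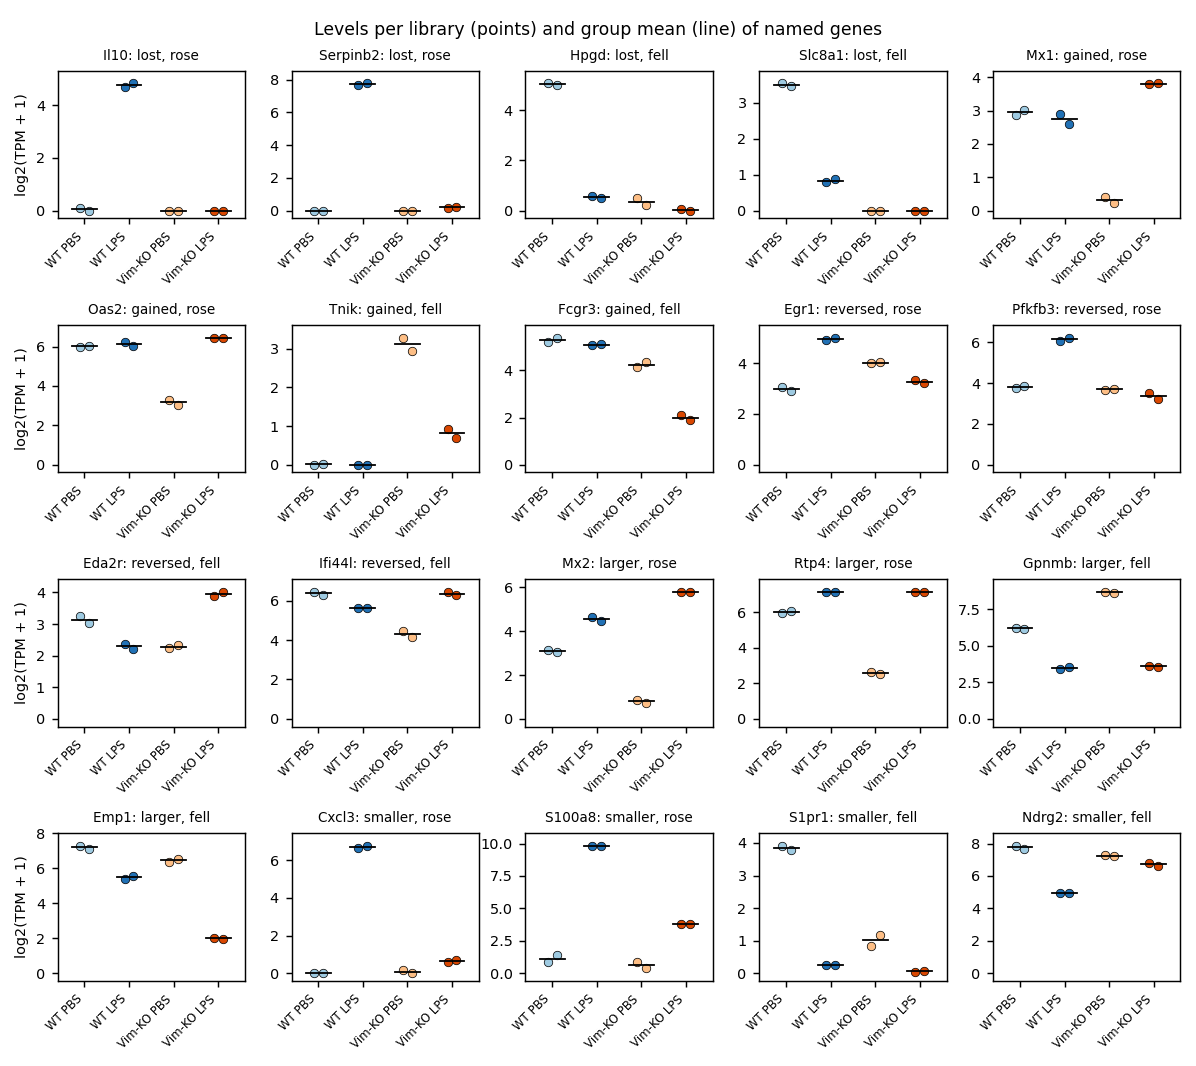
Levels of 20 named genes in log2(TPM + 1), with 1 point per library, a line at the mean of the 2 libraries of a group, and the class of the gene above each panel. In each panel the step from PBS to LPS differs between WT (blue) and Vim-KO (orange). Il10 rises in WT LPS only, and Mx1 rises from PBS to LPS in Vim-KO only.

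Interferon-stimulated genes rose more with LPS in Vim-KO than in WT cells. Of 39 tested members of a list of type I interferon-stimulated genes, 37 had a higher interaction and none a lower one at the adjusted threshold (37 higher and 1 lower at an unadjusted p), against 13.7% higher and 6.96% lower among all genes, and the median was 1.99. Members that passed had 31 larger, 5 gained and 1 reversed response. Leaving out any single library gave 37 or 38 higher, and median-of-ratios scaling gave 37 higher and 1 lower. The 4 with the largest interaction were Mx1 and Mx2, which encode dynamin-like antiviral GTPases, Rtp4, which encodes a transmembrane receptor transporter protein, and Oas2, which encodes an oligoadenylate synthetase that activates RNase L.

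Mx1 stood at 6.25 and 7.16 TPM in WT PBS and 6.38 and 5.08 TPM in WT LPS, but at 0.331 and 0.167 TPM in Vim-KO PBS and 12.97 and 13.1 TPM in Vim-KO LPS. The WT groups overlapped, the Vim-KO libraries lay below them at rest and above them with LPS, and the interaction was 3.69 ± 0.2 (adjusted p 3.26e-05). Mx2 went from 7.88 and 7.399 TPM to 23.8 and 20.8 TPM in WT and from 0.826 and 0.659 TPM to 54.9 and 54.8 TPM in Vim-KO, an interaction of 3.58 ± 0.15 (adjusted p 1.4e-05). The annotation calls Mx2 a polymorphic pseudogene, and reads shared with its neighbour Mx1 make both values uncertain.

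Rtp4 started from different levels and ended at similar ones. It rose from 60.7 and 66.9 TPM to 140.4 and 141 TPM in WT and from 5.22 and 4.66 TPM to 139.6 and 142 TPM in Vim-KO, so the libraries with LPS overlapped and those with PBS did not. Its interaction was 3.45 ± 0.11 (adjusted p 3.46e-06). Oas2 was at 62.6 and 65.2 TPM in WT PBS and 73.5 and 65.4 TPM in WT LPS, with no overlap between WT and Vim-KO at rest. In Vim-KO it went from 8.86 and 7.16 TPM to 85.4 and 87.05 TPM, and the interaction was 3.17 ± 0.15 (adjusted p 1.9e-05).

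Members of the list also started lower at rest in Vim-KO. The median log2(TPM + 1) of the 39 members was 4.92 and 4.91 in the WT PBS libraries, 6.2 and 6.16 in WT LPS, 3.29 and 3.03 in Vim-KO PBS and 6.57 and 6.6 in Vim-KO LPS. With PBS, 38 of 39 members were lower in Vim-KO than in WT and none was higher (4782 of all genes differed, with 25.4% lower and 17.7% higher, 43.0% in all, and 3186 differed without WT PBS library 1). With LPS, 15 were higher and 4 lower in Vim-KO (24.1% and 20.6% among all genes, 44.7% in all). The interaction shares its libraries with both genotype comparisons and is not independent of them. Isg15 and Ifnb1 were named after their values were seen. Isg15, a ubiquitin-like modifier, was at 304 and 297 TPM in WT LPS and 302 and 304 TPM in Vim-KO LPS, while the PBS levels were 24.03 and 22.1 TPM and 3.65 and 4.39 TPM. Interferon beta itself (Ifnb1) was at 0.273 and 0 TPM in WT PBS, 1.65 and 2.105 TPM in WT LPS, 0 TPM in both Vim-KO PBS libraries and 2.401 and 5.09 TPM in Vim-KO LPS. Its interaction of 0.84 ± 0.4 (adjusted p 0.178) did not pass, except without Vim-KO LPS library 1 (1.26, adjusted p 0.0338).

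**Figure D3:**
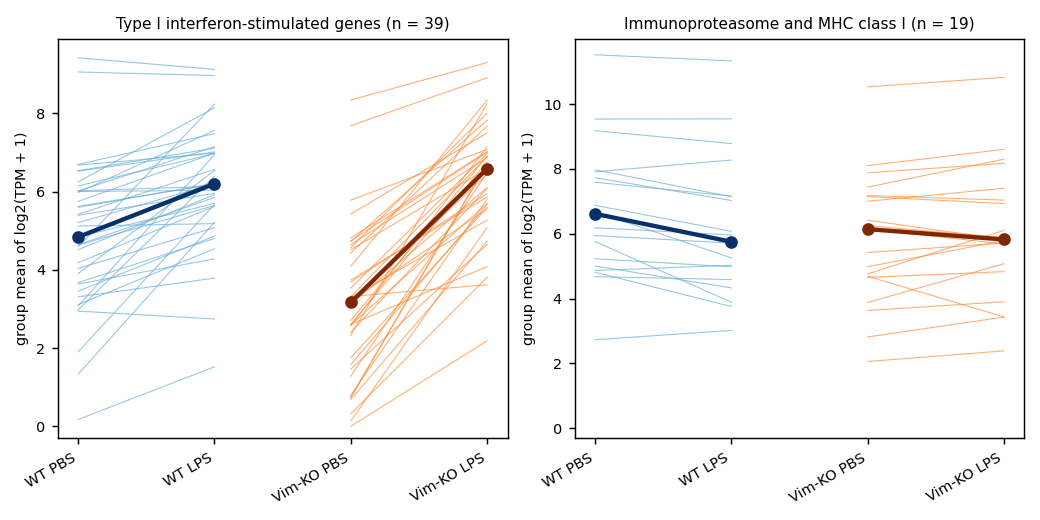
Group means of log2(TPM + 1) for every tested member (thin lines) and the median over members (thick line with points), for 39 type I interferon-stimulated genes and 19 immunoproteasome and MHC class I genes, with WT in blue and Vim-KO in orange. The interferon-stimulated genes start lower in Vim-KO PBS and end near the WT level with LPS.

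Other interferon-inducible GTPases mostly had a higher interaction as well, beside 13.7% higher and 6.96% lower among all genes. Of 9 tested guanylate-binding proteins and immunity-related GTPases, which act on vacuoles of intracellular microbes, 6 had a higher interaction and 1 a lower one. The median was 1.49. The lower member passed in 1 of the 8 fits that left out a library. Igtp went from 13.8 and 14 TPM to 28.4 and 29.7 TPM in WT and from 3.83 and 4.002 TPM to 32.5 and 35.1 TPM in Vim-KO, with an interaction of 1.81 ± 0.12 (adjusted p 6.86e-05). Irgm2 (1.74 ± 0.17 (adjusted p 0.000434)), Irgm1 (1.67 ± 0.15 (adjusted p 0.000251)) and Gbp3 (1.64 ± 0.22 (adjusted p 0.00211)) followed, and in each of them the Vim-KO PBS libraries were the lowest of the 8. In level, 8 of the 9 list members were lower in Vim-KO with PBS and none higher, beside 25.4% and 17.7% of all genes. With LPS 5 were lower and none higher, beside 20.6% and 24.1%.

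Other interferon-inducible genes were among those with the largest interactions of their class. Ifi207 and Ifi202b, of the AIM2-like family that binds DNA, had interactions of 3.15 ± 0.15 (adjusted p 1.92e-05) and 3.14 ± 0.14 (adjusted p 1.9e-05). Ifi202b rose from 39.4 and 37.2 TPM to 209 and 199 TPM in WT and from 0.974 and 1.38 TPM to 95.05 and 103 TPM in Vim-KO, so WT was higher in both conditions although the LPS step was larger in Vim-KO. H2-T24, a nonclassical MHC class I gene, was at 50.6 and 52.9 TPM and 45.7 and 46.5 TPM in WT PBS and WT LPS, and at 13.5 and 11.4 TPM and 93.7 and 98.8 TPM in Vim-KO. It was called gained in Vim-KO (3.02 ± 0.12 (adjusted p 1.4e-05)). Ifi44l was reversed: it fell from 87.05 and 76.5 TPM to 49.3 and 48.6 TPM in WT and rose from 21.2 and 16.7 TPM to 84.5 and 78.3 TPM in Vim-KO, with an interaction of 2.78 ± 0.16 (adjusted p 4.38e-05). Oasl2 rose from 15.1 and 15.7 TPM to 32.1 and 33.5 TPM in WT and from 0.324 and 0.957 TPM to 24.9 and 26.2 TPM in Vim-KO (3.0 ± 0.24 (adjusted p 0.000141)). These families hold close paralogs, and how shared reads were divided is not stated.

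MHC class I and immunoproteasome genes, which cut and load peptides for presentation to T cells, had mostly higher interactions, beside 13.7% higher and 6.96% lower among all genes. Of 19 tested members, 15 had a higher interaction and 1 a lower one, with a median of 0.69 and with 12 to 16 higher in the fits without 1 library. The lower member passed in 1 of those 8 fits. In WT, LPS lowered 12 members and raised 1, beside 53.1% lowered and 17.8% raised among all genes, with a median of -0.40 beside -0.35. In Vim-KO it raised 10 and lowered 5, beside 20.5% raised and 45.8% lowered, with a median of 0.29 beside -0.23. After scaling the counts were 6 raised and 8 lowered in WT and 13 raised and 1 lowered in Vim-KO. In WT cells at 24 h, 13 of the 19 were raised and 2 lowered (20.9% and 45.1% among all genes), or 16 and 1 after scaling. Tap1, a subunit of the peptide transporter, went from 56.3 and 65.3 TPM to 48.7 and 54.1 TPM in WT and from 25.2 and 27.1 TPM to 71.05 and 64.8 TPM in Vim-KO, with an interaction of 1.58 ± 0.14 (adjusted p 0.00023). Nlrc5, the transactivator of MHC class I genes, went from 25.9 and 30.7 TPM to 30.8 and 32.5 TPM in WT and from 12.98 and 14.5 TPM to 31.7 and 33.8 TPM in Vim-KO (1.03 ± 0.15 (adjusted p 0.00243)). Psme2b (1.67 ± 0.24 (adjusted p 0.00258)) and H2-Q4 (1.09 ± 0.12 (adjusted p 0.000561)) were reversed, with falls in WT and rises in Vim-KO. In WT at 24 h Psme2b fell (-1.78, adjusted p 0.000582) and H2-Q4 rose (0.37, adjusted p 0.00532). How reads shared with related genes were divided is not stated for them either. B2m, the light chain of MHC class I and named after its values were seen, remained higher in WT: WT libraries held 2993 and 2889 TPM at rest and 2481 and 2683 TPM after LPS, against 1503 and 1456 TPM and 1821 and 1808 TPM in Vim-KO. For the interaction of the 19 members, scaling gave 13 higher and 1 lower. In level with PBS, 17 of the 19 were lower in Vim-KO than in WT and 1 was higher, beside 25.4% and 17.7% of all genes. With LPS 7 were lower and 3 higher, beside 20.6% and 24.1%.

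Promoters of the interferon-stimulated genes were read because their members moved together. RefSeq promoter sequences (GRCm38.p6, 250 bases before to 50 after the start) were held for 8415 of the genes tested, with 10728 promoters in all, and for 29 of the 39 list members, with 36 promoters. The core of the interferon response element, searched as GAAANNGAA on both strands, matched 18 of the 36 promoters (50%), against 7.24% of all promoters of tested genes. It matched 18.3% of promoters of larger rises, 12.0% of gained rises and 9.42% of smaller rises, and also 29.6% of promoters of cytosolic ribosomal protein genes, a list with no interaction past the threshold. A match is a description of letters, not a binding site. The windows below are those of the 4 list members with the largest interaction among the genes that hold a match before the start. Capitals mark the matches on either strand, which overlap in Oas3 and Isg15, and each sequence is given 5′ to 3′ on the strand of the gene in GRCm38.p6.
Oas3, chr5:120777671-120777790, minus strand: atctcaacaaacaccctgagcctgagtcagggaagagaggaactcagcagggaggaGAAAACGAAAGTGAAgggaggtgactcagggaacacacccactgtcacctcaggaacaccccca
Ifit3, chr19:34583318-34583437, plus strand: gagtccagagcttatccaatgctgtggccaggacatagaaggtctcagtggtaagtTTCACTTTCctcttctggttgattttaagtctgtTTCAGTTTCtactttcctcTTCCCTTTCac
Isg15, chr4:156200833-156200952, minus strand: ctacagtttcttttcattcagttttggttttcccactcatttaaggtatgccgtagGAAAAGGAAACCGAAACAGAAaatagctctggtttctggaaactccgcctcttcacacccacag
Ifih1, chr2:62646304-62646423, minus strand: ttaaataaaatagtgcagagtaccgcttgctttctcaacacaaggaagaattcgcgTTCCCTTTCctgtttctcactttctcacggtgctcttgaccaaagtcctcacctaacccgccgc

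These 4 genes encode an oligoadenylate synthetase, a protein with tetratricopeptide repeats that binds viral RNA, a ubiquitin-like modifier and the RNA sensor MDA5. Their interactions were 2.75 ± 0.13 for Oas3, 2.55 ± 0.22 for Ifit3, 2.28 ± 0.12 for Isg15 and 2.23 ± 0.13 for Ifih1. Oas3 rose from 91.2 and 90.6 TPM to 121 and 136 TPM in WT and from 20.97 and 20.1 TPM to 220.3 and 187 TPM in Vim-KO.

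Cytokine and chemokine genes rose less with LPS in Vim-KO on the log2(TPM + 1) scale. Their median on that scale with PBS was 1.39 and 1.4 in the WT libraries and 0.67 and 0.75 in Vim-KO. At such low levels the scale understates a change. With a pseudocount of 0.1, Ccl12, Il1b and Il1a did not pass, as given below. Of 32 tested members of the list, 18 had a lower interaction and 4 a higher one, against 6.96% and 13.7% among all genes, with a median of -0.75. In 16 of them both genotypes rose with LPS and Vim-KO rose less. Scaling left 18 lower and 4 higher, and leaving out single libraries gave 17 or 18 lower. The 4 higher calls were less steady, with 1 left without Vim-KO LPS library 1 or WT LPS library 1 and 2 left without either Vim-KO PBS library or WT PBS library 1.

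Cxcl3, a neutrophil-attracting chemokine, was at 0 TPM in both WT PBS libraries and 101 and 109 TPM in WT LPS. In Vim-KO it went from 0.104 and 0 TPM to 0.511 and 0.643 TPM, a rise that passed its test (0.58 ± 0.13) but stayed under 1 TPM, and the interaction was -6.14 ± 0.19 (adjusted p 3.46e-06). Il10, which encodes an anti-inflammatory cytokine of macrophages, reached 24.8 and 27.5 TPM in WT LPS and was listed at 0 in all 4 Vim-KO libraries (-4.71 ± 0.21 (adjusted p 1.9e-05)). Exact zeros in TPM can be failed estimates, and no fold is given for them. Ccl7 and Ccl12, chemokines that recruit monocytes, rose in WT from 2.001 and 2.13 TPM to 609.8 and 558 TPM and from 3.07 and 2.096 TPM to 50.4 and 54.1 TPM. In Vim-KO LPS they reached 7.44 and 7.62 TPM and 1.44 and 2.11 TPM, with interactions of -4.48 ± 0.13 (adjusted p 3.46e-06) and -2.85 ± 0.38 (adjusted p 0.00182). With a pseudocount of 0.1 the Ccl12 interaction was -1.64 and no longer passed (adjusted p 0.368).

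Other cytokines, named after their values were seen, were resized to different degrees. Il1b rose from 0.394 and 0.35 TPM to 2774 and 2725 TPM in WT and from 0.074 and 0 TPM to 566 and 552 TPM in Vim-KO (-1.89 ± 0.099 (adjusted p 2.51e-05)), and Il1a reached 1832 and 1883 TPM in WT LPS and 286 and 238 TPM in Vim-KO LPS (-2.57 ± 0.17 (adjusted p 6.86e-05)). Both genes were near 0 at rest, and with a pseudocount of 0.1 neither passed (Il1b -0.46, adjusted p 0.347, and Il1a -1.35, adjusted p 0.0804). Il6 rose from 0 in every PBS library to 419 and 394 TPM in WT and 240.1 and 244 TPM in Vim-KO (-0.75 ± 0.11 (adjusted p 0.00335)). Tnf and Ccl3 had smaller rises with higher levels. Tnf went from 28.4 and 29.7 TPM to 695 and 738 TPM in WT and from 65.03 and 75.2 TPM to 1152 and 1036 TPM in Vim-KO (-0.63 ± 0.12 (adjusted p 0.0104)), so its level was higher in Vim-KO in both conditions. Ccl3 went from 166 and 155 TPM to 11147 and 12124 TPM in WT and from 605 and 780.1 TPM to 18772 and 16113 TPM in Vim-KO (-1.51 ± 0.18 (adjusted p 0.000952)).

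**Figure D4:**
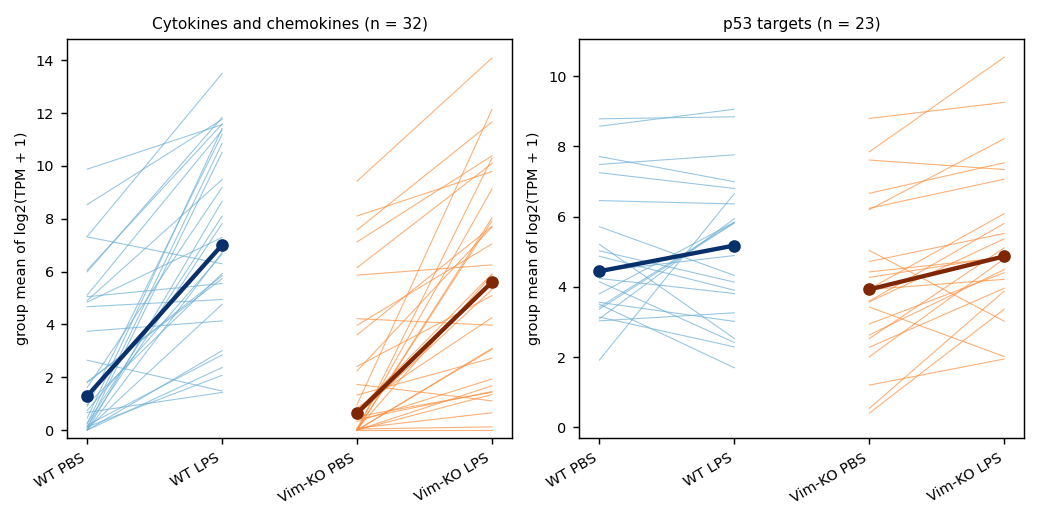
Group means of log2(TPM + 1) for every tested member (thin lines) and the median over members (thick line with points), for 32 cytokine and chemokine genes and 23 p53 targets, with WT in blue and Vim-KO in orange. Some cytokine lines that climb in WT, such as Il10 and Cxcl3, stay near 0 in Vim-KO, and 7 p53 targets have opposite directions in WT and Vim-KO.

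The genes with the largest loss of a rise were not all cytokines. Serpinb2, which encodes the plasminogen activator inhibitor PAI-2, was at 0 TPM in all PBS libraries, 206 and 217 TPM in WT LPS and 0.0955 and 0.186 TPM in Vim-KO LPS, an interaction of -7.54 ± 0.18 (adjusted p 1.73e-06) and the largest in size among the named genes. Its annotation overlaps Serpinb10 on the same strand, so shared reads are possible. S100a8, a calprotectin subunit, reached 908 and 892 TPM in WT LPS and 13.1 and 12.9 TPM in Vim-KO LPS from at most 1.62 TPM at rest (-5.52 ± 0.3 (adjusted p 3.26e-05)). Il33, an alarmin cytokine, reached 119 and 143 TPM and 3.76 and 3.69 TPM with LPS in WT and Vim-KO and at most 0.0327 TPM at rest (-4.77 ± 0.18 (adjusted p 1.19e-05)). Stfa3, a cysteine protease inhibitor with close paralogs, was at 34.2 and 38.8 TPM in WT LPS and 0 and 1.84 TPM in Vim-KO LPS (-4.47 ± 0.58 (adjusted p 0.00152)). Car4, a membrane-bound carbonic anhydrase, was at 14.6 and 16.6 TPM in WT LPS and at 0 in all Vim-KO libraries (-3.82 ± 0.27 (adjusted p 0.000101)). In each of these 5 genes the WT LPS libraries stood above all 6 others.

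Promoters of lost and smaller rises were searched for AP-1 (TGANTCA) and kappa-B (GGAANNNCC) letters on both strands. The AP-1 letters matched 11.5% of promoters of smaller rises and 9.02% of lost rises, against 4.93% of all and 10.3% of larger rises. Kappa-B letters matched 26.7% of smaller rises and 20.3% of lost rises against 22.3% of all, and 59.1% of the 22 promoters held for cytokine and chemokine genes. In a set chosen after the values were seen, the lost or smaller rises with an interaction of -2 or below, AP-1 letters matched 11 of 43 promoters (25.6%). Larger or gained rises of at least 2 matched at 25.7% (9 of 35). The windows below belong to the 3 lost or smaller rises with the largest interaction that hold a match before the start, with AP-1 letters (Serpinb2) or kappa-B letters on either strand (Cxcl3, Ccl12) in capitals.
Serpinb2, chr1:107511272-107511391, plus strand: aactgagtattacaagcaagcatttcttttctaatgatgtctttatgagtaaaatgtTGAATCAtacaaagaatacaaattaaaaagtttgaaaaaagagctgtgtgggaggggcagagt
Cxcl3, chr5:90785973-90786092, plus strand: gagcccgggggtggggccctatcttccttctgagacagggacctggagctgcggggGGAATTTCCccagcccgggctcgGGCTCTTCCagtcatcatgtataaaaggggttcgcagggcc
Ccl12, chr11:82101725-82101844, plus strand: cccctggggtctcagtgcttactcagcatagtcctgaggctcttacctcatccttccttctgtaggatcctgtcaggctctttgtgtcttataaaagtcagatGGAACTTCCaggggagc

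Anti-inflammatory and LPS tolerance genes were divided in their interactions, beside 6.96% lower and 13.7% higher among all genes. Of 18 tested, 9 were lower and 2 higher, with a median of -0.45, and 5 were lower without Vim-KO PBS library 2, WT LPS library 2 or WT PBS library 1. Besides Il10, the list was led by Il1rn, which encodes the antagonist of the IL-1 receptor. Il1rn went from 35.1 and 32.1 TPM to 2460.5 and 2776 TPM in WT and from 0.673 and 0.929 TPM to 18.1 and 18.2 TPM in Vim-KO (-2.83 ± 0.14 (adjusted p 1.99e-05)), with Vim-KO far below WT in both conditions. Both higher members were signal components. Il10ra, the IL-10 receptor chain, was gained: 36.6 and 36.6 TPM and 43.4 and 44.8 TPM in WT PBS and LPS, 6.23 and 4.41 TPM and 40.7 and 36.1 TPM in Vim-KO (2.39 ± 0.19 (adjusted p 0.000141)). Irak3, an inhibitory kinase-like protein of Toll-like receptor signalling, rose from 14.1 and 13.4 TPM to 108 and 119 TPM in WT and from 1.45 and 1.06 TPM to 60.2 and 51.7 TPM in Vim-KO (1.70 ± 0.17 (adjusted p 0.000363)).

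Feedback regulators of MAP kinase and cytokine receptor signalling had interactions both ways. For both lists below, the shares among all genes were 6.96% lower and 13.7% higher. Among 17 MAP kinase phosphatases and mRNA decay factors, 6 were lower with all libraries and 6 in each fit without 1 of them. The count of higher members, 4, went to between 0 and 2 without either WT PBS library, either WT LPS library, either Vim-KO PBS library or Vim-KO LPS library 1, and to 2 after scaling. Dusp6, an ERK phosphatase, rose from 24.98 and 22.6 TPM to 81.2 and 96.2 TPM in WT and was at 38.7 and 42.03 TPM and 39.4 and 39.9 TPM in Vim-KO PBS and LPS (-1.88 ± 0.14 (adjusted p 0.000112)). Dusp14 was reversed, though not after scaling, and went from 2.38 and 2.02 TPM to 7.901 and 10.9 TPM in WT and from 4.58 and 5.11 TPM to 3.24 and 2.97 TPM in Vim-KO (-2.20 ± 0.23 (adjusted p 0.000537)). Dusp5 rose less (-1.80 ± 0.17 (adjusted p 0.000326)), and Dusp7 fell past the threshold in Vim-KO and not in WT (-2.03 ± 0.19 (adjusted p 0.00028)). Of 15 SOCS, STAT and Janus kinase genes, 3 were lower and 2 higher. Socs3, an inhibitor of receptor signalling through STAT3, went from 14.4 and 13.1 TPM to 477 and 550.1 TPM in WT and from 23.5 and 24.4 TPM to 225 and 175 TPM in Vim-KO (-2.13 ± 0.18 (adjusted p 0.000165)), and Cish, an inhibitor of STAT5 signalling, had an interaction of -2.24 ± 0.3 (adjusted p 0.002). Jak2 was reversed at -0.80 ± 0.1 (adjusted p 0.00132), though not after scaling. Without Vim-KO LPS library 1 this list had 5 lower, and without WT PBS library 1 it had 1 higher.

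Immediate early and AP-1 genes had interactions both ways, with 7 lower and 6 higher of 23 tested and a median of -0.12. Among all genes 6.96% were lower and 13.7% higher. Egr1, a zinc finger transcription factor downstream of ERK, was reversed. It rose from 7.33 and 6.398 TPM to 29.1 and 31.1 TPM in WT and fell from 15.1 and 15.3 TPM to 9.07 and 8.18 TPM in Vim-KO (-2.74 ± 0.14 (adjusted p 2.51e-05)), and no 2 groups overlapped. Fosl1, an AP-1 subunit, rose from 7.76 and 9.06 TPM to 91.2 and 97.8 TPM in WT and from 21.7 and 23.1 TPM to 81.8 and 70.5 TPM in Vim-KO (-1.63 ± 0.15 (adjusted p 0.000247)). Bhlhe40, a transcriptional repressor, fell past the threshold in Vim-KO and not in WT (-1.79 ± 0.28 (adjusted p 0.00403)). Atf3, a stress-induced repressor, went the other way, from 40.9 and 42.95 TPM to 79.4 and 74.1 TPM in WT and from 9.87 and 6.96 TPM to 126 and 99.6 TPM in Vim-KO (2.74 ± 0.22 (adjusted p 0.000156)).

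Several Toll-like receptor and NF-kB pathway genes had a higher interaction, though not the LPS receptor. Counts of higher and lower refer to the interaction, which was higher in 13.7% and lower in 6.96% of all genes. Of 27 Toll-like receptors, adaptors and kinases, 13 were higher and none lower (16 and 2 at an unadjusted p), with a median of 0.60. Their classes were 4 larger, 4 smaller, 3 lost, 1 gained and 1 reversed. A smaller response with a higher interaction is a smaller fall and not a rise. The count of 13 was 7 without Vim-KO PBS library 1 or WT PBS library 1 and 8 without Vim-KO PBS library 2 or WT LPS library 1. Scaling gave 11 higher and 2 lower, and 2 were lower without Vim-KO LPS library 1. Tlr4, the LPS receptor itself and named after its values were seen, was at 42.2 and 40.1 TPM in WT PBS, 16.4 and 15.5 TPM in WT LPS, 14.2 and 12.8 TPM in Vim-KO PBS and 5.92 and 4.898 TPM in Vim-KO LPS, and its interaction of 0.13 ± 0.15 (adjusted p 0.582) did not pass. Tlr9 fell from 14.5 and 13.6 TPM to 4.401 and 4.98 TPM in WT and rose from 4.997 and 4.62 TPM to 11.9 and 9.85 TPM in Vim-KO (2.43 ± 0.17 (adjusted p 0.0001)). Ticam1, which encodes TRIF, rose from 12.8 and 11.4 TPM to 35.9 and 38.8 TPM in WT and from 6.05 and 5.64 TPM to 48.5 and 38.2 TPM in Vim-KO (1.13 ± 0.18 (adjusted p 0.00379)). Among 20 NF-kB subunits and feedback inhibitors, 9 were higher and 3 lower, with 5 higher without Vim-KO PBS library 2 and at most 1 lower without any single library. Birc3, a ubiquitin ligase of the NF-kB pathway, rose from 43.9 and 41.4 TPM to 72.6 and 72.4 TPM in WT and from 11.8 and 10.8 TPM to 85.9 and 85.3 TPM in Vim-KO (2.06 ± 0.1 (adjusted p 2e-05)), and Tnip3, an A20-binding inhibitor, had an interaction of 1.60 ± 0.11 (adjusted p 9.56e-05). In level with PBS, Vim-KO was lower than WT in 16 and higher in 1 of the 27 Toll-like receptor list members. For the 20 NF-kB members the numbers were 12 and 2. With LPS they were 8 and 5 of the 27, and 6 and 4 of the 20. Among all genes 25.4% were lower and 17.7% higher with PBS, and 20.6% and 24.1% with LPS.

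Effector enzymes of activated macrophages were split in their interactions, beside 6.96% lower and 13.7% higher among all genes. Of 17 classical activation enzymes and receptors, 7 were lower and 5 higher, and scaling gave 9 lower and 2 higher. The higher count was 2 without Vim-KO PBS library 1 and 3 without Vim-KO PBS library 2, either WT LPS library or WT PBS library 2. Nos2, the inducible nitric oxide synthase, rose from 2.19 and 2.31 TPM to 153 and 178 TPM in WT and from 0.432 and 0.413 TPM to 282 and 221 TPM in Vim-KO (1.79 ± 0.18 (adjusted p 0.00046)). Acod1, which makes itaconate and was named after its values were seen, had 2311 and 2482 TPM in WT LPS and 2588 and 2162 TPM in Vim-KO LPS from a lower resting level in Vim-KO (1.65 ± 0.12 (adjusted p 0.000123)). Slpi, a secreted protease inhibitor, rose from 67.4 and 65.5 TPM to 1179 and 1241 TPM in WT and from 43.3 and 55.8 TPM to 139.7 and 152 TPM in Vim-KO (-2.62 ± 0.16 (adjusted p 4.46e-05)). Fpr1, a receptor for formylated bacterial peptides, reached 17.6 and 18.01 TPM in WT LPS and 0.747 and 1.22 TPM in Vim-KO LPS (-3.07 ± 0.27 (adjusted p 0.000217)). Slc7a2, an arginine transporter, reached 40.8 and 45.97 TPM and 7.03 and 5.398 TPM (-2.10 ± 0.21 (adjusted p 0.000427)), and with a pseudocount of 0.1 it did not pass (-0.51, adjusted p 0.315).

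Hpgd, among the prostaglandin genes, had the largest interaction of the lost falls named. This prostaglandin-degrading enzyme fell from 32.5 and 30.7 TPM to 0.479 and 0.421 TPM in WT and was already at 0.405 and 0.174 TPM in Vim-KO PBS, with 0.0569 and 0 TPM in Vim-KO LPS (4.17 ± 0.22 (adjusted p 2.51e-05)). Ptgs2, the inducible cyclooxygenase, rose from 12.3 and 11.8 TPM to 2015 and 2184 TPM in WT and from 4.08 and 3.92 TPM to 2435 and 2040.3 TPM in Vim-KO (1.47 ± 0.13 (adjusted p 0.000205)), so the LPS libraries overlapped and the PBS libraries did not. Ptgir, the prostacyclin receptor, rose from 3.18 and 3.11 TPM to 23.04 and 24.4 TPM in WT and from 20.3 and 20.9 TPM to 34.6 and 28.2 TPM in Vim-KO (-2.0 ± 0.15 (adjusted p 0.00013)). Ptger2, a prostaglandin E2 receptor, rose less (-1.39 ± 0.23 (adjusted p 0.00485)). Among all genes 6.96% had a lower interaction and 13.7% a higher one. In the list of 15, 5 were lower and 3 higher, with 2 lower without Vim-KO PBS library 1 and 3 without Vim-KO PBS library 2 or WT PBS library 1.

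Targets of p53, the DNA damage and stress response factor, had mostly higher interactions, beside 13.7% higher and 6.96% lower among all genes. Of 23 tested, 19 had a higher interaction and 1 a lower one, with a median of 1.18, and single libraries left 14 to 19 higher. Scaling gave 17 higher and 1 lower. In WT, LPS lowered 11 members and raised 9, beside 53.1% lowered and 17.8% raised among all genes, and in Vim-KO it lowered 3 and raised 19, beside 45.8% and 20.5%. After scaling WT had 7 lowered and 12 raised and Vim-KO 2 and 19. In the separate WT libraries at 24 h, LPS raised 20 of the 23 and lowered 3, beside 20.9% raised and 45.1% lowered among all genes. The classes of those past the threshold were 7 reversed, 6 larger, 3 gained, 3 smaller and 1 lost. Cdkn1a, the cell cycle inhibitor p21, went from 382 and 378 TPM to 498 and 566 TPM in WT and from 229 and 229 TPM to 1550.1 and 1421 TPM in Vim-KO (2.21 ± 0.1 (adjusted p 1.92e-05)). At rest Vim-KO was below WT, and with LPS it was above. Phlda3, an inhibitor of AKT signalling, fell from 52.4 and 50.5 TPM to 18.9 and 19.2 TPM in WT and rose from 25.8 and 25.01 TPM to 53.6 and 37.6 TPM in Vim-KO (2.19 ± 0.2 (adjusted p 0.000286)). Eda2r, a receptor of the TNF receptor family, fell from 8.48 and 7.22 TPM to 4.16 and 3.65 TPM in WT and rose from 3.69 and 4.04 TPM to 13.9 and 15.3 TPM in Vim-KO (2.53 ± 0.18 (adjusted p 8.65e-05)). Trp53inp1, a stress-induced p53 cofactor, fell from 10.5 and 10.2 TPM to 2.19 and 2.31 TPM in WT and went from 1.67 and 0.992 TPM to 2.99 and 2.73 TPM in Vim-KO (2.55 ± 0.23 (adjusted p 0.000247)). Mdm2, the p53 ubiquitin ligase and named after its values were seen, had an interaction of 1.75 ± 0.082 (adjusted p 1.92e-05).

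The BCL-2 family, which controls mitochondrial cell death and includes p53 targets, had 8 higher and 1 lower interactions of 15, beside 13.7% and 6.96% of all genes. The higher count was 5 after scaling, 4 without Vim-KO PBS library 1 or WT PBS library 2, and 5 without Vim-KO PBS library 2, WT PBS library 1 or either WT LPS library. Bmf, a BH3-only protein, fell from 13.6 and 12.4 TPM to 0.919 and 1.42 TPM in WT and was at 9.22 and 8.25 TPM and 9.29 and 7.63 TPM in Vim-KO (2.65 ± 0.22 (adjusted p 0.000156)). Bcl2l11, which encodes BIM, rose from 16.5 and 16.9 TPM to 54.3 and 57.1 TPM in WT and from 7.92 and 6.54 TPM to 102 and 85.95 TPM in Vim-KO (1.86 ± 0.16 (adjusted p 0.000198)). Pmaip1, which encodes NOXA, had a lost fall at 1.28 ± 0.17 (adjusted p 0.00166).

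ATF4 targets and amino acid response genes more often had a lower than a higher interaction. For this list and the actin list below, the shares among all genes were 6.96% lower and 13.7% higher. Of 25 tested, 11 were lower and 4 higher, with a median of -0.36, and single libraries left 9 to 11 lower. Chac1, a glutathione-degrading enzyme, rose from 0.741 and 0.848 TPM to 8.55 and 10.6 TPM in WT and from 1.01 and 0.718 TPM to 2.93 and 2.14 TPM in Vim-KO (-1.63 ± 0.25 (adjusted p 0.00376)), and Slc1a4, an amino acid transporter, had a lost rise (-1.40 ± 0.26 (adjusted p 0.00844)). Ddit4, an inhibitor of mTORC1, was at 9.45 and 9.88 TPM and 9.55 and 10.8 TPM in WT and went from 9.05 and 8.08 TPM to 44.9 and 31.6 TPM in Vim-KO (1.95 ± 0.23 (adjusted p 0.000859)). Actin cytoskeleton genes had 9 lower and 1 higher of 30, with 7 to 10 lower without single libraries and 4 higher without Vim-KO LPS library 2. Marcks, a membrane-actin linker, rose from 0.0795 and 0.191 TPM to 14.4 and 16.9 TPM in WT and reached 0.928 and 0.695 TPM in Vim-KO LPS (-3.02 ± 0.23 (adjusted p 0.000127)). Tmsb10, an actin-binding peptide, rose from 171 and 174 TPM to 310.2 and 298 TPM in WT and fell from 109.9 and 105 TPM to 83.8 and 81.9 TPM in Vim-KO (-1.19 ± 0.08 (adjusted p 7.55e-05)), a fall that did not pass after scaling (-0.11, adjusted p 0.107), and Actg1, a cytoplasmic actin, had an interaction of -0.96 ± 0.16 (adjusted p 0.0055).

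Cell cycle genes fell with LPS in both genotypes, and part of them fell further in Vim-KO. All 30 tested genes of DNA replication and S phase fell in WT and in Vim-KO, beside 53.1% and 45.8% of all genes. Of the 30, 10 had a lower interaction (a deeper fall) and 3 a higher one, beside 6.96% and 13.7% of all genes. The same shares of all genes stand beside the mitosis counts below. The lower count was 5 without either Vim-KO PBS library and 6 without any one of the WT libraries. Rrm2, the inducible subunit of ribonucleotide reductase, fell from 204 and 189.5 TPM to 65.1 and 68.8 TPM in WT and from 304 and 316 TPM to 57.7 and 51.1 TPM in Vim-KO (-0.95 ± 0.11 (adjusted p 0.000821)). Cdc6 and E2f8, a replication licensing factor and a repressor of E2F targets, had interactions of -0.97 ± 0.14 (adjusted p 0.00278) and -0.87 ± 0.14 (adjusted p 0.00519). Among 28 mitosis genes, all of which fell in both genotypes, 7 were lower and 2 higher, and 4 were lower without either Vim-KO PBS library, either WT PBS library or WT LPS library 2. Ccna2, a cyclin of S phase and mitosis, fell from 181 and 177 TPM to 21.6 and 21.4 TPM in WT and from 216 and 219 TPM to 14.4 and 12.4 TPM in Vim-KO (-0.92 ± 0.11 (adjusted p 0.00105)). After scaling the counts were 13 lower and 3 higher for S phase, and 10 lower and 0 higher for mitosis.

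Of the 8 named falls that were gained or larger in Vim-KO, 6 started from a higher level in Vim-KO PBS than in WT PBS. Gpnmb, a glycoprotein of lysosome-rich macrophages, fell from 72.6 and 71.8 TPM to 9.57 and 10.99 TPM in WT and from 419.5 and 396 TPM to 11.3 and 10.9 TPM in Vim-KO, so that the LPS libraries overlapped (-2.37 ± 0.11 (adjusted p 1.92e-05)). Klhl30 went from 2.01 and 0.961 TPM to 0.0247 and 0.0483 TPM in WT and from 33.9 and 32.1 TPM to 1.62 and 1.63 TPM in Vim-KO (-2.47 ± 0.28 (adjusted p 0.000813)), and Xkr5 from 0.84 and 0.711 TPM to 0 and 0.0264 TPM and from 8.09 and 8.69 TPM to 0.289 and 0.0809 TPM (-2.18 ± 0.23 (adjusted p 0.000611)). With a pseudocount of 0.1 neither passed (Klhl30 -0.81, adjusted p 0.28, and Xkr5 -2.04, adjusted p 0.0795). Tnik, a kinase of the WNT pathway, was near 0 in WT and went from 8.79 and 6.71 TPM to 0.913 and 0.611 TPM in Vim-KO (-2.30 ± 0.26 (adjusted p 0.000835)). Amy1, an amylase that overlaps Rnpc3 on the same strand, went from 8.23 and 8.47 TPM to 0.871 and 0.744 TPM in Vim-KO and stayed under 0.5 TPM in WT (-2.05 ± 0.21 (adjusted p 0.000538)). Exosc6, an exosome subunit, was listed at 26.8 and 17.3 TPM in Vim-KO PBS and at 0 in the other 6 libraries (-4.50 ± 0.3 (adjusted p 7.42e-05)), and it overlaps Aars on the same strand, so its value is uncertain. Fcgr3, an Fc receptor, and Emp1, a membrane protein, did not start higher. Fcgr3 was at 36.1 and 40.9 TPM and 32.3 and 33.7 TPM in WT and 16.7 and 19.2 TPM and 3.33 and 2.67 TPM in Vim-KO PBS and LPS (-2.03 ± 0.17 (adjusted p 0.000162)). Emp1 fell from 155 and 138 TPM to 41.5 and 45.96 TPM in WT and from 81.6 and 92.7 TPM to 3.06 and 2.88 TPM in Vim-KO (-2.75 ± 0.14 (adjusted p 2.05e-05)).

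Several genes with a lost or smaller fall in Vim-KO were already low or listed at 0 in Vim-KO PBS. Slc8a1, a sodium and calcium exchanger, fell from 10.6 and 10.1 TPM to 0.73 and 0.825 TPM in WT and was listed at 0 in all Vim-KO libraries (2.67 ± 0.21 (adjusted p 0.000145)). S1pr1, the sphingosine 1-phosphate receptor, was at 14.1 and 12.7 TPM in WT PBS and 0.787 and 1.25 TPM in Vim-KO PBS (2.65 ± 0.24 (adjusted p 0.000249)), and Ephx1, an epoxide hydrolase, at 27.7 and 27.7 TPM and 3.74 and 4.299 TPM (2.10 ± 0.24 (adjusted p 0.000868)). Yipf7 fell from 5.51 and 8.05 TPM to 0.347 and 0.339 TPM in WT and was at 1.51 and 1.34 TPM and 1.56 and 2.07 TPM in Vim-KO (2.72 ± 0.27 (adjusted p 0.000434)). Of 391 lost falls, 32 were below 1 TPM in every Vim-KO library, and of 146 lost rises 33 were, beside 165 of all 11115 genes tested. Such genes reached the mean of 1 TPM through their WT libraries, which leaves little room for an LPS change in Vim-KO. Other genes had closer resting levels and fell less in Vim-KO. Ndrg2, a stress-responsive gene, fell from 232 and 206 TPM to 30.5 and 29.5 TPM in WT and from 154 and 148 TPM to 109 and 98.1 TPM in Vim-KO (2.29 ± 0.11 (adjusted p 2.05e-05)). Psrc1, a microtubule-associated protein, fell from 96.02 and 106 TPM to 17.8 and 14.2 TPM in WT and from 69.4 and 64.5 TPM to 47.1 and 50.3 TPM in Vim-KO (2.14 ± 0.16 (adjusted p 0.000109)).

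Reversed genes also included metabolic and signalling genes. Pfkfb3, a driver of glycolysis, rose from 12.7 and 13.7 TPM to 65.8 and 74.5 TPM in WT and went from 11.8 and 12.1 TPM to 10.5 and 8.42 TPM in Vim-KO (-2.64 ± 0.16 (adjusted p 5.42e-05)). Its fall in Vim-KO was -0.32 ± 0.12 with an adjusted p of 0.0395, and it did not pass after scaling (-0.08, adjusted p 0.529). Qpct, a glutaminyl cyclase, rose from 1.69 and 1.75 TPM to 4.18 and 4.19 TPM in WT and fell from 7.51 and 8.81 TPM to 1.59 and 2.004 TPM in Vim-KO (-2.64 ± 0.2 (adjusted p 0.000115)). Inka2, an inhibitor of PAK4, fell from 9.44 and 9.49 TPM to 1.99 and 2.11 TPM in WT and rose from 2.98 and 2.52 TPM to 5.102 and 5.73 TPM in Vim-KO (2.55 ± 0.18 (adjusted p 8.31e-05)). Nes, which encodes the intermediate filament protein nestin, rose from 1.77 and 1.74 TPM to 3.19 and 3.09 TPM in WT and fell from 6.04 and 6.48 TPM to 3.95 and 3.75 TPM in Vim-KO (-1.17 ± 0.17 (adjusted p 0.00267)).

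**Figure D5:**
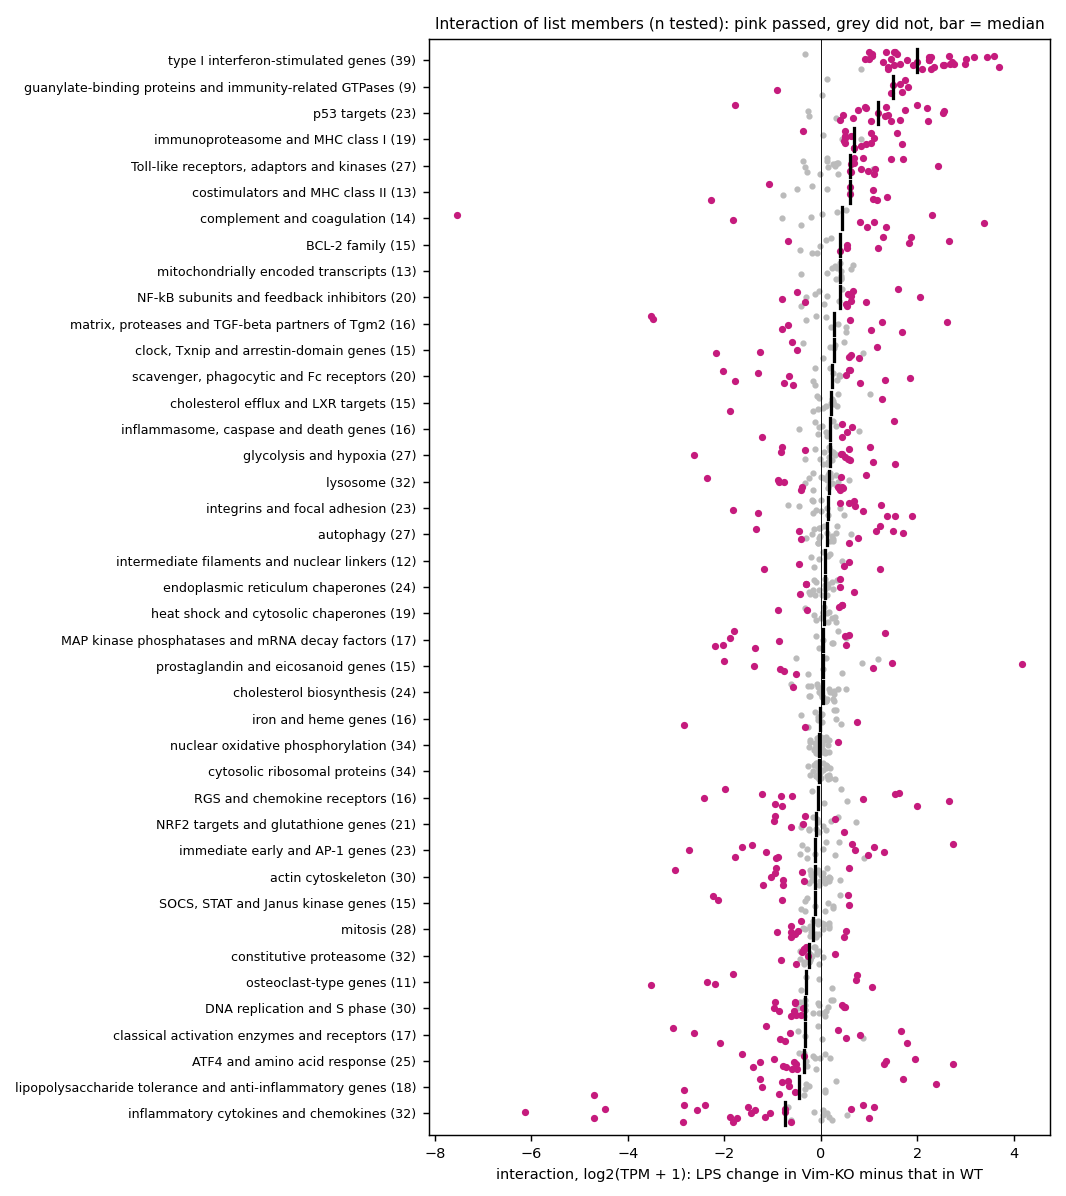
Interaction of the tested members of 41 gene lists in log2(TPM + 1), with the number tested after each name, pink points for members past the threshold, grey points for the others and a bar at the median of the list. Lists run from type I interferon-stimulated genes (median 1.99) at the top to cytokines and chemokines (median -0.75) at the bottom, and ribosomal and oxidative phosphorylation genes sit near 0.

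Few genes of ribosomal, respiratory and sterol synthesis lists had an interaction past the threshold, beside 20.6% of all genes. Of 34 cytosolic ribosomal protein genes none passed in limma (1 higher and 1 lower at an unadjusted p), of 13 mitochondrially encoded transcripts none passed in limma (0 at an unadjusted p) although their median was 0.40, and of 34 nuclear genes of oxidative phosphorylation 1 was higher. Cholesterol biosynthesis genes had 1 lower of 24. Other lists in the plot of gene lists had larger shares. Constitutive proteasome subunits had 8 lower and 1 higher of 32 (28.1%) with a median of -0.25. That count was 16 lower after scaling, 15 without Vim-KO LPS library 2, and between 3 and 5 without either Vim-KO PBS library or any one of the WT libraries. Glycolysis and hypoxia genes had 9 higher and 4 lower of 27 (48.1%), with 2 lower without either Vim-KO PBS library, either WT LPS library, Vim-KO LPS library 2 or WT PBS library 2. Lysosome genes had 7 higher and 6 lower of 32 (40.6%). The lysosome balance turned to 4 higher and 9 lower after scaling, and the higher count was 2 without Vim-KO PBS library 1 or either WT PBS library and 3 without WT LPS library 1. Scavenger, phagocytic and Fc receptors had 6 higher and 6 lower of 20 (60%), with 4 to 6 higher and 5 or 6 lower without single libraries.

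The classes were then followed in 6 separate libraries of WT RAW264.7 cells at 24 h, which the interaction does not use. They comprise 2 with PBS, 2 with LPS at 1 µg/mL and 2 with LPS plus CTM at 0.5 mM, named as the labels give it. In these libraries LPS raised 2300 (20.9%) and lowered 4977 (45.1%) of 11030 genes tested, and CTM with LPS raised 1781 (16.1%) and lowered 1042 (9.45%) against LPS alone (66.0% and 25.6% changed in all). After scaling the LPS split was 3450 raised and 3415 lowered, and that of CTM 1265 raised and 1550 lowered. The CTM count of 2823 was 1153 without the CTM library numbered 3, 1552 without the one numbered 2 and 1794 without the LPS library numbered 3. Of 335 tested genes whose 12 h rise was smaller or lost in Vim-KO, 68.1% were higher with LPS at 24 h and 41.8% were lower with CTM. Of 290 genes with a larger rise in Vim-KO, 78.3% were higher with LPS and 47.2% lower with CTM. For 1223 genes that rose in WT at 12 h without an interaction past the threshold, the shares were 53.6% and 22.3%. These sets were not matched for the size of the 12 h change, and the differences between their shares were not tested. All shares by class are from values without scaling. Gained rises, defined in Vim-KO, were higher with LPS at 24 h in 41.7% of 228 genes and lower with CTM in 18.9%. Both 24 h comparisons share the LPS libraries and are not independent of each other. The same shares for falls are a description, and their differences were not tested. Of 4643 tested genes that fell in WT at 12 h without an interaction past the threshold, 65.1% were lower and 6.31% higher with LPS at 24 h. Larger falls were lower in 73.4% of 222 genes and higher in 5.86%, and smaller or lost falls were lower in 56.3% of 798 and higher in 13.3%. Falls that were reversed in Vim-KO were lower in 28.8% of 156 genes and higher in 41%, and reversed rises were higher in 41% of 61 and lower in 31.1%.

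The named genes of the reversed and gained classes are given for the 24 h comparison in full. Of the 8 reversed genes, Ifi44l, Inka2, Trp53inp1 and Eda2r, which fell in WT and rose in Vim-KO at 12 h, rose in WT at 24 h, with changes of 0.89 ± 0.084 (adjusted p 9.02e-05), 1.24 ± 0.17 (adjusted p 0.000505), 0.89 ± 0.16 (adjusted p 0.00178) and 2.95 ± 0.12 (adjusted p 1.92e-06). Egr1, which rose in WT and fell in Vim-KO at 12 h, fell in WT at 24 h (-1.50 ± 0.12 (adjusted p 3.72e-05)). Dusp14 (1.95 ± 0.29 (adjusted p 0.00086)) and Pfkfb3 (0.42 ± 0.14 (adjusted p 0.0295)) rose as in WT at 12 h, and Qpct did not pass (-0.50 ± 0.2 (adjusted p 0.0603)). Of the 8 gained genes, Oas2 (1.26 ± 0.091 (adjusted p 2.41e-05)), Ifi207 (1.68 ± 0.099 (adjusted p 9.5e-06)) and H2-T24 (1.93 ± 0.077 (adjusted p 1.71e-06)) rose in WT at 24 h, and Amy1 (-0.60 ± 0.21 (adjusted p 0.0391)) and Fcgr3 (-0.59 ± 0.16 (adjusted p 0.0122)) fell, which is the direction of each in Vim-KO at 12 h. Mx1 did not pass (0.76 ± 0.33 (adjusted p 0.0784)), and Tnik and Exosc6 were not tested at 24 h. After scaling the falls of Amy1 and Fcgr3 did not pass (adjusted p 0.0975 and 0.1), Mx1 passed (0.92, adjusted p 0.0412), and the calls and directions of the rest were those given above. Gpnmb and Psrc1, chosen after their values were seen, fell in both genotypes at 12 h and rose in WT at 24 h (1.0 ± 0.095 (adjusted p 8.93e-05) and 1.27 ± 0.1 (adjusted p 3.87e-05)), although the Vim-KO fall of Psrc1 did not pass after scaling (-0.19, adjusted p 0.191). The 12 h and 24 h libraries were extracted on different dates, and the time and the date cannot be told apart.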

How the data were processed

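The authors deposited TPM for each gene symbol. Salmon, mm10 and GRCm38 are named in the submitters' processing notes, while version and annotation are not given in the sources used here. A stranded mRNA kit was used, per the labels' protocols. The test ran on log2(TPM + 1) in limma 3.58.1 (R 4.3.3), for genes whose 12 h libraries averaged 1 TPM or more. All 4 groups shared 1 model of group means with a mean-variance trend and 4 residual degrees of freedom. Benjamini-Hochberg adjustment ran over all 11115 genes. The 24 h libraries were fitted separately in the same way. At 24 h the LPS and CTM columns carry numbers other than those of the labels, and only their group was used. Liver libraries were not used here.

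The members, the 41 gene lists and the tests were chosen with earlier results of these data known. Named genes are Vim, Tgm2 and, per class and direction, the 4 with the largest interaction among genes past the threshold with no overlap of library differences and at least 5 TPM in the highest group, skipping predicted genes; 1 of them is not reported here. Up to 4 members with the largest interaction of each list described were added, and the text gives part of them. Genes named after their values were seen are marked. Positions, overlaps and gene types come from a GRCm38 annotation, and promoters from RefSeq.

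Tested on simulated data for the interaction over 11115 genes, the fit found 46.3% of log2 changes of 0.5, 91% of those of 1 and 98.5% of those of 2, and 8 of its 165 calls were false. Both genotypes had the WT means there, with normal noise whose spread depended on expression level alone. Only 67, 67 and 66 genes of these sizes were changed, in Vim-KO LPS alone. The data differ in these respects, so the rates need not hold for them. The alternatives tried were median-of-ratios scaling, each library left out, a replicate block, a fit without trend, no filter or one at 5 TPM, a pseudocount of 0.1, a minimum change of 1 and classes by size. Tables and figures used Python 3.11.15, pandas 2.3.3, numpy 2.4.6 and matplotlib 3.10.9.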

Additional observations from a re-analysis of the deposited data

Results flagged for a closer look

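Each result here is a difference of the LPS change between the genotypes that passed the interaction test in limma. It passed in 2292 genes, and the 39 genes named by class are given with their interaction on the log2 scale. Among rises lost in Vim-KO it was -7.54 for Serpinb2, -4.71 for Il10, -4.47 for Stfa3 and -3.82 for Car4. Among falls lost in Vim-KO it was 4.17 for Hpgd, 2.72 for Yipf7 and 2.67 for Slc8a1. Gained rises gave 3.69 for Mx1, 3.17 for Oas2, 3.15 for Ifi207 and 3.02 for H2-T24, and gained falls gave -4.50 for Exosc6, -2.30 for Tnik, -2.05 for Amy1 and -2.03 for Fcgr3. Rises in WT that were reversed gave -2.74 for Egr1, -2.64 for Qpct, -2.64 for Pfkfb3 and -2.20 for Dusp14. Falls in WT that were reversed gave 2.78 for Ifi44l, 2.55 for Inka2, 2.55 for Trp53inp1 and 2.53 for Eda2r. Larger rises gave 3.58 for Mx2, 3.45 for Rtp4, 3.14 for Ifi202b and 3.0 for Oasl2, and larger falls gave -2.75 for Emp1, -2.47 for Klhl30, -2.37 for Gpnmb and -2.18 for Xkr5. Smaller rises gave -6.14 for Cxcl3, -5.52 for S100a8, -4.77 for Il33 and -4.48 for Ccl7, and smaller falls gave 2.65 for S1pr1, 2.29 for Ndrg2, 2.14 for Psrc1 and 2.10 for Ephx1. The difference between the LPS responses was tested in each of these genes.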

How the results depend on the processing

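Requiring a log2 change of at least 1 lowered each count by construction: the interaction to 710 (460 higher, 250 lower), the LPS response to 2712 in WT and 2444 in Vim-KO, the genotype difference to 969 with PBS and 916 with LPS, the 24 h LPS response to 2296 and CTM to 254, and the classes to 145 lost, 114 gained, 112 reversed, 161 larger and 178 smaller. Classes by size gave 222 lost, 160 gained, 5 reversed, 222 larger and 243 smaller. Median-of-ratios scaling gave 1232 lower interactions. Pseudocount, filter and trend kept each count within 1.5 times. Leaving out 1 library gave 1203 to 2656 interactions (779 to 1844 higher, 422 to 898 lower), 238 to 712 lost, 203 to 421 gained, 142 to 247 reversed, 260 to 599 larger and 300 to 673 smaller. It gave 6761 to 8225 LPS changes in WT and 6271 to 7267 in Vim-KO, 3186 to 5343 genotype differences with PBS and 3681 to 4655 with LPS, and at 24 h 6065 to 7083 for LPS and 1153 to 2362 for CTM. The lone library of a group was then assumed to vary like the others. Same-numbered libraries did not deviate together (correlation -0.219 to 0.098), and with the replicate block 1835 interactions passed. No sign changed among 118 genes named here or in the lists, over 1629 pairs of a gene and an alternative fit. Of the 118, 117 kept their side of the threshold after scaling and 109 with a pseudocount of 0.1. Most of these genes were chosen for a large interaction in the same libraries, so a kept sign was likely beforehand. TPM hold no depth, so precision at low levels is unknown.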
